A study of Prunus dulcis with 36 samples.

Results

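Fruits of the almond cultivar 'ZhiPi' were profiled by RNA-seq, and 72 of the 8676 unigenes listed in the deposited columns had their highest normal-fruit value at 37 days after flowering (DAF), far above 12 DAF. The listed unigenes are fewer than the paper assembled, so shares of all listed unigenes do not describe the whole assembly. These members were chosen by their values. Each averaged 10 FPKM or more across the 12 groups, had N37 as the highest of the 6 normal groups, and had N37 at least 3 above N12 in log2(FPKM + 1). FPKM counts sequenced fragments relative to transcript length and library size, N and A stand for normal and abnormal fruits, and the number is the stage in DAF. Unigenes that the paper's text names by ID were left out, as were those whose A17 exceeded both A12 and A22 by more than 2 or was below both by more than 2.

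Abnormal and normal fruits were each sampled at 6 stages (12, 17, 22, 27, 32 and 37 DAF) with 3 replicates per group, or 36 samples. Abnormal fruits were the stunted ones, judged likely to drop soon, and they were picked from the same branches as the normal ones, without any treatment. A sample was a mix of pieces of whole fruits from orchard trees, so a lower value from fewer cells of a type and from less RNA per cell cannot be told apart. The deposited columns hold 1 value per unigene and group, the authors' mean over the replicates. No spread between replicates can be given for any value here, no test was possible, and a difference is a description of the group means. Differences are in log2(FPKM + 1), and a difference was counted as higher or lower when it was larger than 1 in size.

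A young almond fruit consists of the hull, the shell beneath it and the seed, which develop together after fertilization. In stone fruits the shell, or endocarp, hardens as lignin is laid down in its cell walls, while the seed forms its storage tissue later in the season. Lignin is made by joining phenolic alcohols through oxidation, and secreted peroxidases and laccases are the enzymes known for that step. Fruits that stop growing early are shed through an abscission zone at the stalk.

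Annotation was held for 754 of the listed unigenes and for 2 of the 72 members. DN18908_c0_g2 is annotated as peroxidase 72, after an Arabidopsis thaliana enzyme of the secreted peroxidase family that has been linked to lignin formation in that species. It had 46.9, 6.58, 7.20, 8.83, 27.1 and 66.8 FPKM in abnormal fruits from 12 to 37 DAF, and 9.15, 10.5, 13.7, 55.1, 100.4 and 668 FPKM in normal fruits. The normal values went up at every step, and the last step, from 32 to 37 DAF, was the largest. Abnormal fruits had the higher value at 12 DAF (difference 2.24) and the lower value at the other 5 stages, with differences of −2.51, −1.85 and −3.30 at the last 3 stages. From 12 to 37 DAF the difference within abnormal fruits was 0.50, against 6.04 within normal fruits. It had the fourth highest N37 value among the members.

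DN20037_c0_g1 carries the domain of the MLRQ subunit, a small protein of the mitochondrial respiratory chain that was first assigned to NADH-ubiquinone reductase. It had 76.9, 56.9, 58.8, 3.10, 93.4 and 22.4 FPKM in abnormal fruits from 12 to 37 DAF, and 3.52, 4.03, 33.8, 1.15, 46.9 and 64.1 FPKM in normal fruits. Both fruit types dipped at 27 DAF. Abnormal fruits were higher by 4.11 at 12 DAF, the largest such difference among the members, and by 3.53 at 17 DAF, and they were lower by 1.48 at 37 DAF.

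Lists by function could cover the annotated unigenes only. Of 3 listed unigenes for lignin and phenolic oxidation, peroxidase 72 was the 1 member. Peroxidase 65 (DN16310_c0_g1) was at or under 3.18 FPKM in every group. The L-ascorbate oxidase homolog (DN24542_c2_g4), a multicopper oxidase, ran the other way and had 34.2 FPKM at 37 DAF against 70.4 FPKM at 12 DAF in abnormal fruits, and 25.7 FPKM against 143 FPKM in normal fruits. The lists for cell wall (14 unigenes), sugars and starch (12), flavonoids (4), lipids and wax (20), storage and late embryogenesis proteins (4), transcription factors (29), hormone response (18), photosynthesis (5), transport (24), and defence and stress (16) held 0 members. In these lists, between 0 and 2 unigenes were higher by at least 3 at 37 than at 12 DAF in normal fruits, which held for 6.36% of all listed unigenes. The other 70 members are given by ID only.

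The members divided by their earlier values. In 48 of them, called graded here, at least 1 normal group before 37 DAF was above 0, and 34 of these were above 0 in all 12 groups. The other 24 were listed at 0 in normal fruits from 12 to 32 DAF, and 21 of these were listed at 0 in all 10 groups before 37 DAF. This division was made after the values were seen.

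**Figure D1:**
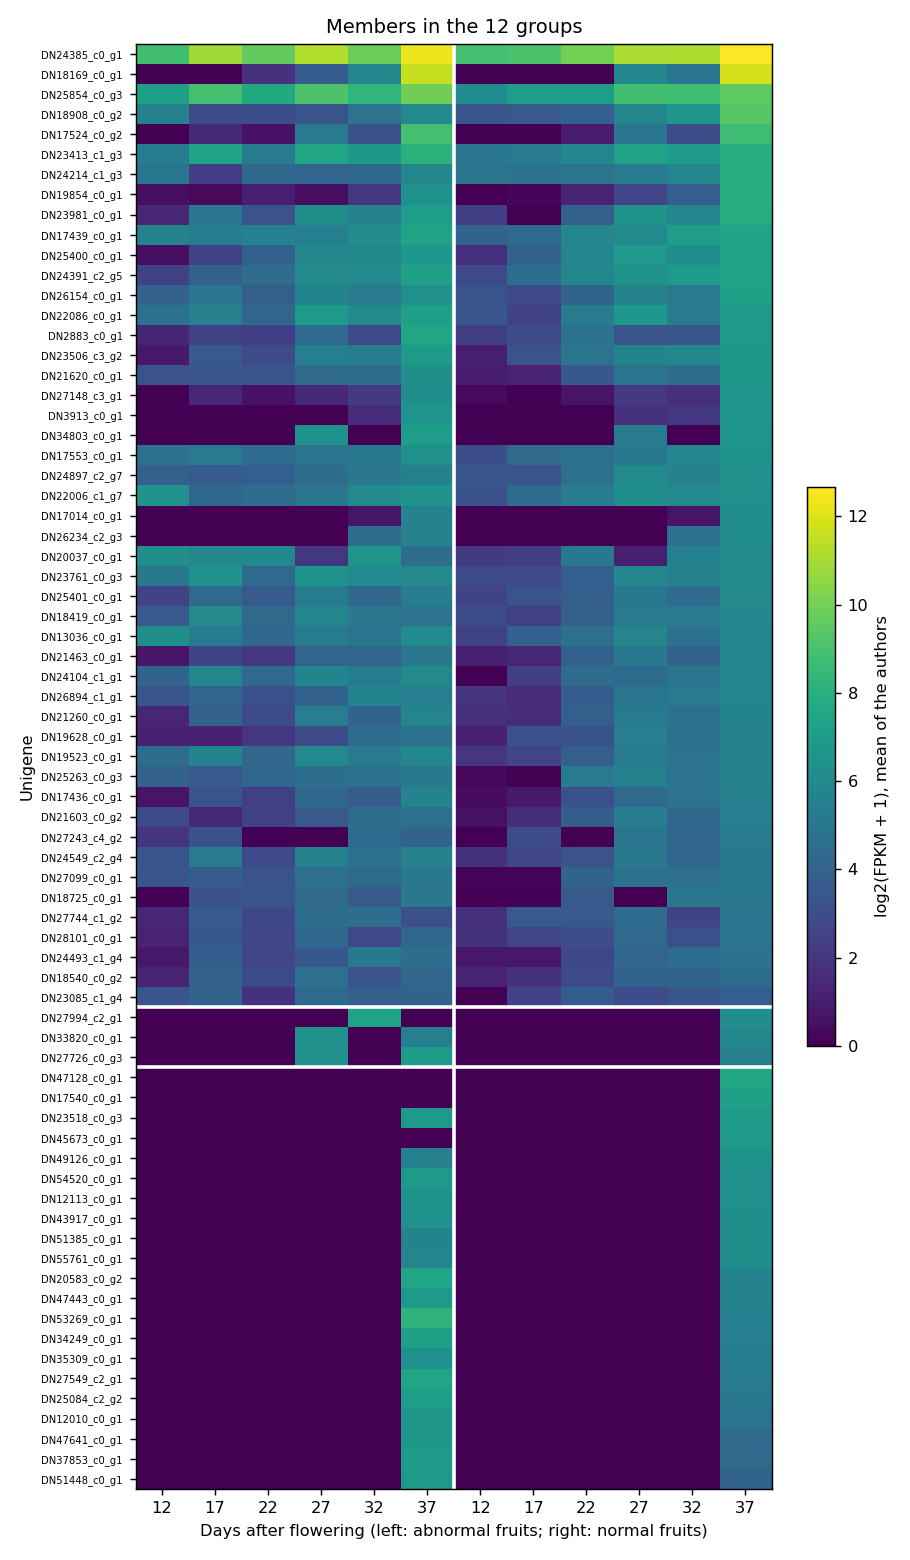
Log2(FPKM + 1) of the 72 members (rows, colour scale) in abnormal fruits (left 6 columns) and normal fruits (right 6 columns) from 12 to 37 DAF, as the authors' means. The upper 48 rows are the graded members, the next 3 were listed at 0 in normal fruits before 37 DAF but not in all earlier abnormal groups, and the lowest 21 were listed at 0 in all 10 groups before 37 DAF.

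At 37 DAF the members had a median of 70.0 FPKM in abnormal fruits and 67.0 FPKM in normal fruits, where the range was 12.6 to 6516 FPKM. More than 100 FPKM was found for 26 members in abnormal and 21 in normal fruits. DN24385_c0_g1 had the highest level, with 457, 1886, 790, 2350, 915 and 5126 FPKM in abnormal fruits and 487, 550, 1026, 2146, 2243 and 6516 FPKM in normal fruits from 12 to 37 DAF. Its normal values never went down, while its abnormal values alternated from stage to stage. DN18169_c0_g1 had 0, 0, 2.51, 11.8, 59.2 and 3049 FPKM in abnormal fruits, and 0, 0, 0, 59.4, 29.5 and 3695 FPKM in normal fruits. Its 37 DAF values stood far above all earlier ones in both fruit types, and its differences of 11.57 in abnormal and 11.85 in normal fruits from 12 to 37 DAF were the largest among the members.

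DN25854_c0_g3 followed with 147, 483, 208, 555, 321 and 957 FPKM in abnormal fruits and 70.4, 136, 134, 457, 444 and 728 FPKM in normal fruits. Abnormal fruits were higher at 5 of 6 stages and lower at 32 DAF, but only the differences at 12 DAF (1.05) and 17 DAF (1.82) were larger than 1. DN17524_c0_g2 had 0, 1.75, 0.525, 38.1, 7.82 and 480 FPKM in abnormal fruits and 0, 0, 1.01, 30.5, 6.73 and 421 FPKM in normal fruits. The fruit types differed by more than 1 only at 17 DAF (1.46). DN23413_c1_g3, the next in level and the member closest to the minimum rise, had 38.8, 155, 35.1, 181, 109 and 281 FPKM in abnormal and 31.0, 35.4, 58.5, 157, 113 and 256 FPKM in normal fruits.

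**Figure D2:**
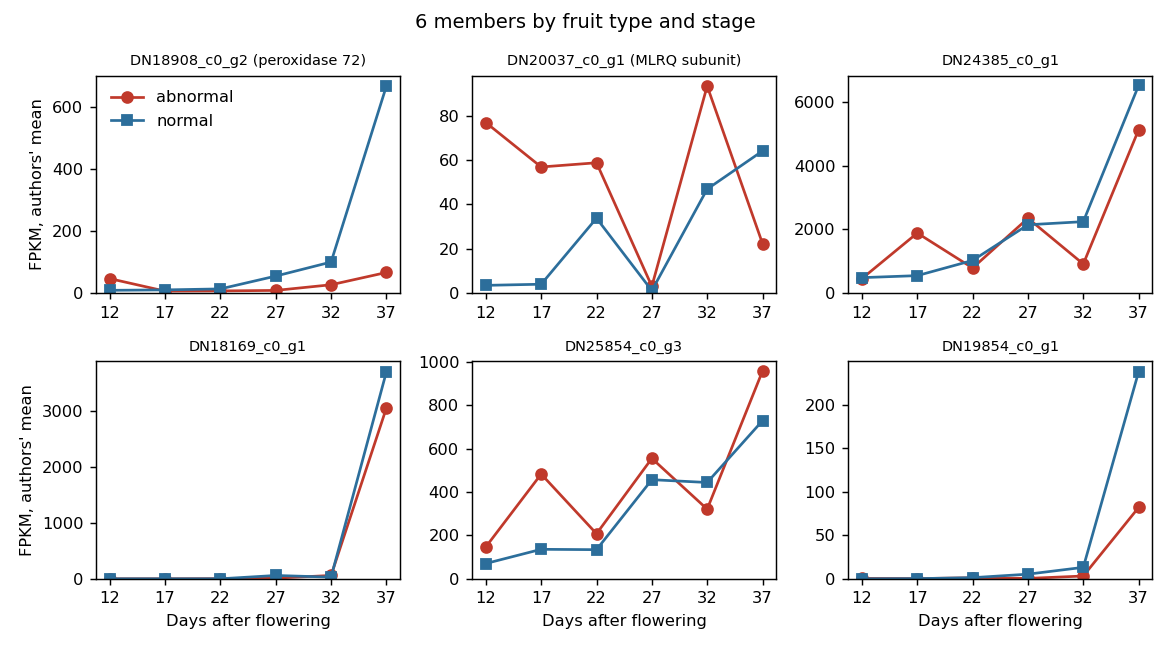
FPKM (linear axes, each with its own scale) against days after flowering for 6 members in abnormal (red circles) and normal fruits (blue squares), each point the authors' mean of 3 replicates. Peroxidase 72 (DN18908_c0_g2) reached 66.8 FPKM in abnormal fruits against 668 FPKM in normal ones at 37 DAF, whereas DN18169_c0_g1 reached 3049 FPKM against 3695 FPKM.

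In normal fruits the graded members were spread over the whole period. Their median was 2.38, 4.75, 13.1, 34.5, 27.3 and 71.3 FPKM from 12 to 37 DAF. On the log2 scale the median share of the 12 to 37 DAF rise was 4.71%, 45.0%, 78.2% and 74.8% at 17, 22, 27 and 32 DAF, and 37 of 48 had passed 50% of it at 27 DAF. For the graded members, the name late rise therefore describes the stage of the highest value rather than the start of the increase. The other 24 members were listed at 0 in normal fruits up to 32 DAF, so their first normal value above 0 was at 37 DAF. Of the 5 steps between neighbouring stages, in order of time, the largest was the first in 8 graded members, the second in 13, the third in 8, the fourth in 3 and the last in 16. Values went up at all 5 steps in 9 of 48, among them peroxidase 72 and DN24385_c0_g1, against 0.588% of all listed unigenes and 1.78% of those averaging at least 10 FPKM. The rule made N37 the highest normal value, so the last step was up in every member. That count and the last step being the largest in 16 are favoured by the choice of members, and nothing is read from either. The counts of the largest step and of those past 50% at 27 DAF were not set against all listed unigenes. From 27 to 32 DAF the median step was −0.26, and 28 of 48 had the higher value at 27 DAF. That order was found for 47.9% of all listed unigenes and for 70.4% of the 2309 with a mean of at least 10 FPKM, so the members are not set apart by it. With median-of-ratios scaling it was found for 20 of the 48, against 37.0% of all listed unigenes under that scaling.

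DN24391_c2_g5 went up at all 5 steps in both fruit types, with 4.63, 14.4, 22.4, 64.8, 65.7 and 149 FPKM in abnormal fruits and 6.02, 23.2, 56.0, 89.3, 128 and 155 FPKM in normal fruits. It was picked after the values were seen. DN25400_c0_g1 was the other graded member whose abnormal values went up at all 5 steps, against 0.300% of all listed unigenes and 0.563% of those averaging at least 10 FPKM. DN19854_c0_g1 had almost all of its level at the end, with 0.439, 0.230, 1.16, 0.449, 3.19 and 82.0 FPKM in abnormal fruits and 0, 0.176, 1.29, 5.32, 13.2 and 238 FPKM in normal fruits. Its normal values were the higher ones from 22 DAF on, by more than 1 from 27 DAF.

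Abnormal fruits reached high values at 37 DAF as well. Of the 72 members, 61 were higher by more than 1 at 37 than at 12 DAF in abnormal fruits, and 42 were higher by at least 3. Among all listed unigenes 23.8% and 5.84% were, and among those with a mean of at least 10 FPKM 28.9% and 6.15%. The mean of at least 10 FPKM favours this in members with low earlier values. In the graded members, 41 of 48 were higher by more than 1 and 22 by at least 3, with a median difference of 2.79, against 4.22 in normal fruits, where the rule set a minimum of 3. A37 was the highest abnormal value in 36 of 48 graded members, which held for 1732 of all 8676 listed unigenes and for 25.2% of those averaging at least 10 FPKM. In the other 12 the highest abnormal value belonged to 27 DAF in 5, to 32 DAF in 5, and to 12 and 17 DAF in 1 each.

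The course in abnormal fruits was less even. The median of the graded members was 5.53, 11.7, 8.36, 23.5, 25.0 and 59.7 FPKM from 12 to 37 DAF, with median steps of 1.16, −0.73, 1.41, −0.08 and 1.15 on the log2 scale. The corresponding steps in normal fruits were 0.20, 1.09, 1.31, −0.26 and 1.12. In 20 of 48 graded members (41.7%), abnormal fruits were above both neighbouring stages at 17 and 27 DAF and higher at 37 than at 32 DAF. DN24385_c0_g1, DN25854_c0_g3 and DN23413_c1_g3 were among them. This alternation was found for 7.46% of all listed unigenes and 16.7% of those with a mean of at least 10 FPKM. With median-of-ratios scaling its number in the graded members was also 20, against 6.74% of all listed unigenes. Those with a 17 DAF value more than 2 above both neighbours were excluded by the rule. The abnormal value was higher by more than 1 at 17 than at 22 DAF in 16 graded members and lower in 4. Among all listed unigenes 13.1% were higher and 19.3% lower, and among those averaging at least 10 FPKM 20.5% were higher and 29.0% lower.

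**Figure D3:**
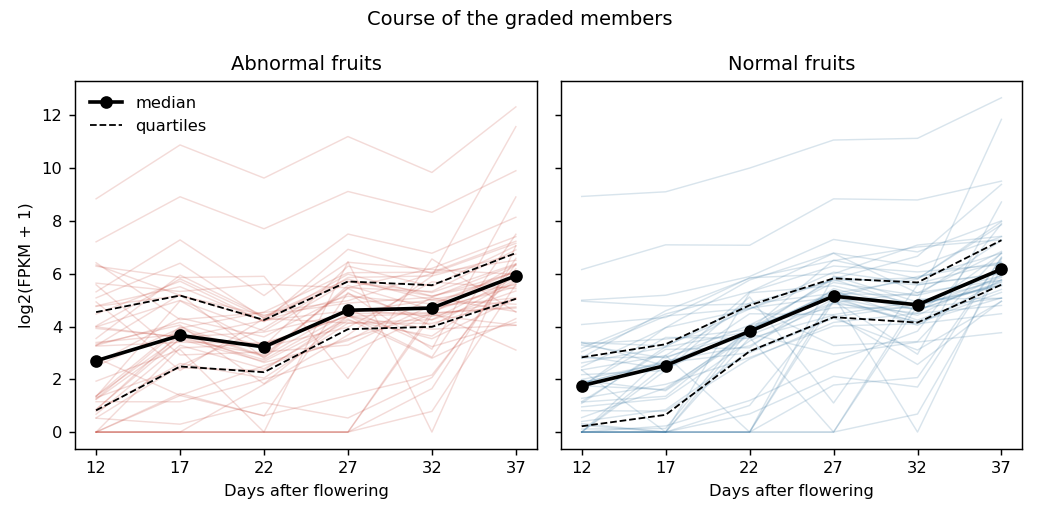
Log2(FPKM + 1) of the 48 graded members (thin lines) against days after flowering in abnormal (left) and normal fruits (right), with the median (thick line) and quartiles (dashed lines). The abnormal median of 11.7 FPKM at 17 DAF is above that of 8.36 FPKM at 22 DAF, whereas the normal medians at these stages are 4.75 and 13.1 FPKM.

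Each abnormal stage was also set against the 6 normal stages over the graded members, by the median absolute difference. Abnormal fruits at 12, 22, 27, 32 and 37 DAF were closest to normal fruits of the same stage, with medians of 0.64, 0.51, 0.65, 0.44 and 0.41. Abnormal fruits at 17 DAF were closest to normal fruits at 22 DAF (0.92) and 32 DAF (1.02), and stood at 1.49 from normal fruits at 17 DAF. The comparisons at 17 DAF rest on this group. These distances were not taken over all listed unigenes. The rule used N12 and N37, held N17 below N37 and used A17 in the exclusion. The choice of members thus bears on these distances, and nothing is read from the place of abnormal fruits at 17 DAF.

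The comparison of abnormal with normal fruits at each stage is the question of the series. At 12 DAF, 19 of 72 members were higher and 3 lower in abnormal fruits, against 13.8% and 16.9% of the listed unigenes (19.7% and 19.3% of those with a mean of at least 10 FPKM). The rule asks for a low N12 relative to N37, so a higher A12 is favoured by the choice of members, and nothing is read from that balance. At 17 DAF, 27 members were higher and 3 lower, against 18.0% and 23.5% of the listed unigenes (29.9% and 32.6% at a mean of at least 10 FPKM). All 27 were graded members, whose median difference was 1.31. The other 24 members had 0 FPKM in A17 and in N17, so none of them could be counted. The rule holds N17 below N37, and A17 enters the exclusion. The choice of members thus bears on the 17 DAF balance too, and nothing is read from it.

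At 22 DAF, 1 member was higher and 10 were lower in abnormal fruits, against 7.09% and 14.6% of the listed unigenes. The 24 members listed at 0 in normal fruits before 37 DAF had 0 FPKM in A22 too, so none of them could be counted. At 27 DAF, 7 were higher and 11 lower, against 8.70% and 12.1%, and at 32 DAF, 2 were higher and 6 lower, against 9.58% and 6.32%. With median-of-ratios scaling the rule took 46 members. Of these, 2 were higher and 5 lower at 22 DAF, 7 were higher and 7 lower at 27 DAF, and 1 was higher and 4 lower at 32 DAF. Among those averaging at least 10 FPKM, the shares higher and lower were 3.33% and 8.19% at 22 DAF, 4.11% and 10.7% at 27 DAF, and 3.90% and 4.89% at 32 DAF. The median difference of the graded members was −0.39, −0.11 and −0.10 at these 3 stages, beside 0 over all listed unigenes at every stage. By median-of-ratios size factors, taken over 3099 unigenes without a 0, abnormal columns stood at −0.18, −0.28 and −0.29 (log2) relative to the normal ones at 17, 22 and 27 DAF, and between −0.04 and 0.03 at the other stages. A difference as deposited at these 3 stages includes a shift of that size. Between stages, the log2 size factors differed by 0.44 for N37 over N12, 0.45 for A37 over A12 and 0.45 for N27 over N32. The differences between 12 and 37 DAF, and between 27 and 32 DAF in normal fruits, include shifts of that size as deposited.

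At 37 DAF, 12 members were higher and 11 lower in abnormal fruits, against 6.77% and 7.76% of the listed unigenes (3.03% and 2.69% with a mean of at least 10 FPKM). That balance turned under other settings, for example to 5 higher and 8 lower with a pseudocount of 5. The graded members made up 0 of the 12 and 7 of the 11. Their median difference was −0.30, with 41 of 48 within 1, against 85.5% of all listed unigenes (94.3% where the mean reached 10 FPKM). A37 was below N37 in 33, against 33.8% of all listed unigenes (47.3%). The rule asks for a high N37, which favours a lower A37.

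**Figure D4:**
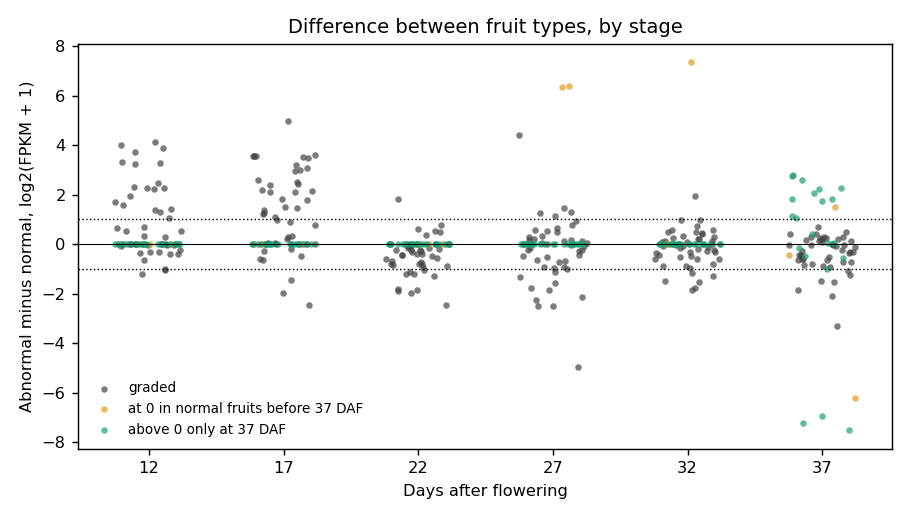
Difference between abnormal and normal fruits in log2(FPKM + 1) at each stage, 1 point per member, spread sideways at random. Dotted lines mark 1 and −1. Grey points are the 48 graded members, orange the 3 listed at 0 in normal fruits only before 37 DAF, and green the 21 above 0 only at 37 DAF. At 17 DAF 27 grey points lie above 1, and at 37 DAF the 12 points above 1 are all green or orange.

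The 7 graded members lower by more than 1 in abnormal fruits at 37 DAF were peroxidase 72, DN24214_c1_g3 (−2.11), DN27744_c1_g2 (−1.85), DN19854_c0_g1 (−1.53), the MLRQ subunit unigene DN20037_c0_g1 (−1.48), DN27243_c4_g2 (−1.25) and DN18419_c0_g1 (−1.07). DN24214_c1_g3 had 29.5, 4.04, 18.8, 16.5, 18.2 and 57.3 FPKM in abnormal fruits from 12 to 37 DAF and 30.1, 26.5, 28.0, 37.2, 54.5 and 251 FPKM in normal fruits. The fruit types started level and abnormal fruits were lower by more than 1 at 17, 27, 32 and 37 DAF, as peroxidase 72 was at the last 3 of these. DN18419_c0_g1 had 10.7, 60.6, 19.99, 54.6, 31.1 and 27.7 FPKM in abnormal fruits and 6.41, 4.22, 13.9, 37.0, 35.4 and 59.1 FPKM in normal fruits. Here abnormal fruits were higher by 3.56 at 17 DAF and lower at the end.

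The members with the largest excess in abnormal fruits at 12 DAF, beside DN20037_c0_g1, were DN24104_c1_g1 and DN13036_c0_g1. DN24104_c1_g1 had 15.2, 54.9, 19.2, 51.3, 34.5 and 65.5 FPKM in abnormal fruits, and 0, 4.08, 21.4, 20.9, 29.8 and 53.2 FPKM in normal fruits. DN13036_c0_g1 had 79.7, 35.3, 17.7, 34.5, 28.1 and 68.1 FPKM in abnormal fruits, and 4.52, 14.5, 24.4, 54.3, 25.8 and 57.2 FPKM in normal fruits. In DN13036_c0_g1 the abnormal values at 12 and 37 DAF were the highest of that fruit type and close to each other (difference −0.22), while the normal values differed by 3.40. DN22006_c1_g7, chosen after its values were seen, was alike, with 84.4, 18.2, 22.1, 30.5, 63.6 and 90.3 FPKM in abnormal and 8.06, 21.2, 38.7, 77.5, 66.1 and 80.3 FPKM in normal fruits.

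Few members were lower in abnormal fruits at the start. DN25400_c0_g1 had 0.452, 4.68, 14.3, 57.1, 59.4 and 106 FPKM in abnormal fruits and 2.31, 14.6, 53.3, 109, 76.6 and 168 FPKM in normal fruits. It was lower in abnormal fruits at 6 of 6 stages, by 1.19, 1.45 and 1.82 at 12, 17 and 22 DAF and by less than 1 afterwards. DN2883_c0_g1 had 1.47, 4.39, 4.07, 20.2, 6.16 and 180 FPKM in abnormal fruits and 4.12, 6.48, 26.6, 8.70, 9.79 and 110 FPKM in normal fruits. Its difference of −2.44 at 22 DAF was the lowest at that stage, and it was 0.70 at 37 DAF. DN23981_c0_g1 had 1.53, 30.4, 8.60, 77.2, 45.0 and 132 FPKM in abnormal fruits and 4.10, 0, 13.6, 90.7, 55.2 and 231 FPKM in normal fruits, with the highest difference of any member at 17 DAF (4.97).

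At 22 DAF the other differences next in order were those of DN23506_c3_g2 (−1.96) and DN23085_c1_g4 (−1.89). Abnormal fruits had 6.60 FPKM of DN23506_c3_g2 at that stage, against 28.6 FPKM in normal fruits, and the 37 DAF values were 119 FPKM (abnormal) and 109 FPKM (normal). DN23085_c1_g4, the member with the lowest N37, had 9.09, 15.6, 2.56, 20.1, 13.9 and 15.5 FPKM in abnormal and 0, 4.82, 12.2, 6.74, 9.64 and 12.6 FPKM in normal fruits. Its normal values at 22 and 37 DAF were almost the same.

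The 21 members above 0 only at 37 DAF formed a separate pattern. Of these, 18 were above 0 in both fruit types, with a range of 44.2 to 306 FPKM and a median of 110 FPKM in abnormal fruits, and a range of 15.5 to 129 FPKM and a median of 45.9 FPKM in normal fruits. The highest abnormal value was that of DN53269_c0_g1, with 306 FPKM in abnormal fruits against 42.8 FPKM in normal ones. In DN51448_c0_g1 the values were 111 FPKM (abnormal) and 15.5 FPKM (normal), and in DN37853_c0_g1 126 FPKM (abnormal) and 20.1 FPKM (normal). These 3 had the highest positive differences at 37 DAF (2.81, 2.76 and 2.59). Closer to equal were DN12113_c0_g1, with 86.0 FPKM in abnormal fruits against 82.2 FPKM in normal ones, and DN43917_c0_g1, with 82.3 FPKM against 78.7 FPKM, both picked after their values were seen. Some values recurred exactly among the 18. N37 was 82.2255 FPKM in both DN54520_c0_g1 and DN12113_c0_g1. A37 divided by N37 was 7.15266 in both DN53269_c0_g1 and DN51448_c0_g1, and 1.04578 in both DN12113_c0_g1 and DN43917_c0_g1. Whether these levels and differences rest on only a few reads was not tested, since read numbers are not held.

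Of these 18, 11 were higher in abnormal fruits by more than 1, 0 were lower and 7 were within 1. With 10 groups at 0, a mean of at least 10 FPKM means that A37 and N37 add up to at least 120 FPKM, and the sums ran from 122 to 349 FPKM. That condition concerns the sum of both fruit types. The unigenes of this kind were chosen on A37 and N37 themselves, so nothing is read from the balance. The 3 others were listed at 0 in abnormal fruits at 37 DAF too, and had 183 FPKM (DN47128_c0_g1), 150 FPKM (DN17540_c0_g1) and 123 FPKM (DN45673_c0_g1) in normal fruits at 37 DAF alone. Without a second group above 0, their level rests on a single deposited mean.

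**Figure D5:**
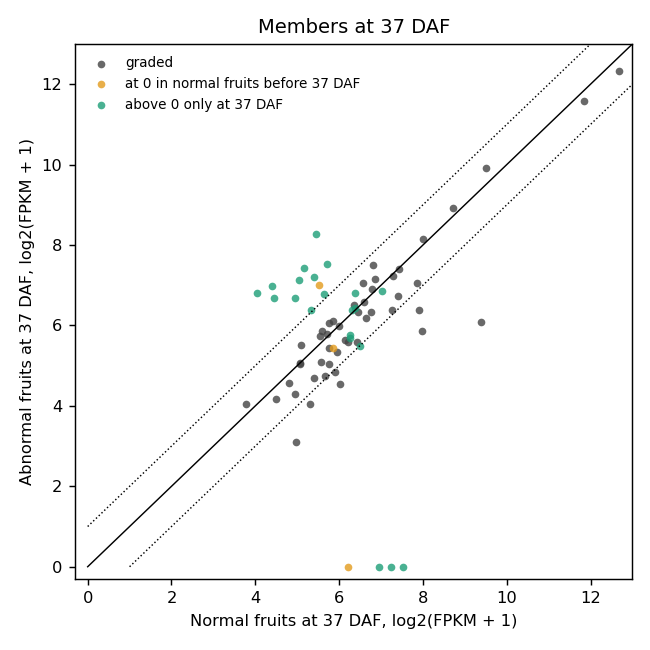
Log2(FPKM + 1) at 37 DAF in abnormal (vertical axis) against normal fruits (horizontal axis), 1 point per member, with the line of equality and dotted lines at a difference of 1. Of the grey graded members 41 of 48 lie between the dotted lines, and 3 green points and 1 orange point lie at 0 in abnormal fruits.

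Over all listed unigenes, 207 (2.39%) were above 0 at 37 DAF in both fruit types and listed at 0 in the other 10 groups, and 18 of these had a mean of at least 10 FPKM. The same pattern at another stage was found for 76, 1, 41, 85 and 69 unigenes at the 5 earlier stages in order of time, of which 0, 0, 3, 11 and 7 had a mean of at least 10 FPKM. The number at 37 DAF was thus the highest of the 6 stages. All 18 unigenes of this kind at 37 DAF are members.

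The remaining 3 members listed at 0 in normal fruits before 37 DAF were above 0 in an earlier abnormal group. DN27994_c2_g1 had 161 FPKM in abnormal fruits at 32 DAF and 73.6 FPKM in normal fruits at 37 DAF, and was listed at 0 elsewhere. DN33820_c0_g1 was above 0 in abnormal fruits at 27 and 37 DAF, with 80.9 and 42.5 FPKM, and in normal fruits at 37 DAF, with 57.3 FPKM. DN27726_c0_g3 followed the same stages, with 82.8 and 127 FPKM in abnormal fruits and 44.7 FPKM in normal fruits. A graded member, DN34803_c0_g1, had the stages of 27 and 37 DAF in both fruit types, with 86.6 and 132 FPKM in abnormal fruits and 35.0 and 93.4 FPKM in normal fruits, and the other 8 groups stood at 0. These 4 were picked after their values were seen.

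Unigenes of the same assembly cluster can divide reads between them. No 2 members shared a cluster, and 12 members had another listed unigene in theirs. DN17524_c0_g1, from the cluster of DN17524_c0_g2, had 218, 1850, 209, 1848, 378 and 891 FPKM in abnormal fruits and 96.1, 63.1, 134, 989, 209 and 554 FPKM in normal fruits. It was highest at 17 and 27 DAF in abnormal and at 27 DAF in normal fruits, where DN17524_c0_g2 had under 40 FPKM. DN25084_c2_g5 was highest at 27 DAF in both fruit types (67.4 FPKM in abnormal fruits against 43.4 FPKM in normal ones), while DN25084_c2_g2 of the same cluster was above 0 only at 37 DAF, with 139 and 32.1 FPKM. Whether reads were divided between them was not tested.

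Just inside the minimum mean of 10 FPKM were DN17014_c0_g1 (10.1), DN35309_c0_g1 (10.1) and DN23085_c1_g4 (10.2), and just outside it were DN34779_c0_g1 (9.97), DN18189_c0_g2 (9.52) and DN25925_c0_g2 (9.52). Just inside the minimum rise of 3 were DN23413_c1_g3 (3.01), DN24214_c1_g3 (3.02) and DN18419_c0_g1 (3.02), and just outside it DN17226_c0_g1 (2.95), DN20244_c0_g1 (2.95) and DN26092_c2_g1 (2.95). Of 81 unigenes that met the conditions on level, stage and rise, 7 were left out for a peak (6) or a trough (1) at 17 DAF in abnormal fruits, and 2 because the paper's text names them. The largest of the 7 was DN17502_c0_g1, with 37.9, 585, 65.8, 1536, 340 and 1201 FPKM in abnormal fruits and 17.2, 35.5, 68.4, 815, 210 and 883 FPKM in normal fruits.

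The 2 named unigenes were gibberellin-regulated protein 11-like (DN26787_c1_g1), of a family of small secreted proteins that respond to gibberellin, and IAA13 (DN26918_c0_g1), of the auxin-response repressors. The 37 DAF values of gibberellin-regulated protein 11-like were 60.5 FPKM (abnormal) and 208 FPKM (normal), a difference of −1.76, and those of IAA13 were 97.6 FPKM (abnormal) and 133 FPKM (normal), a difference of −0.44.

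With the fruit types exchanged, the same rule took 100 of the 8676 listed unigenes. Of these, 39 were members, which is 39 of 100 on that list and 54.2% of the members. Of the 39, 20 were graded. Another 18 were above 0 only at 37 DAF in both fruit types. Their A37 of 44.2 FPKM or more, with 0 at all earlier stages, meets the exchanged rule without further condition. Both rules also share the minimum mean, so nothing is read from the size of the overlap. As a part of the summed FPKM of the listed unigenes, the 72 members took 4.92% at 37 DAF against 0.600% at 12 DAF in abnormal fruits, and 5.86% against 0.331% in normal fruits. DN24385_c0_g1 and DN18169_c0_g1 made up most of the 37 DAF share in both.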

How the data were processed

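RNA was sequenced from 36 samples of almond fruits, and 12 columns were analysed, 1 per fruit type and stage. The authors assembled the reads of all libraries into unigenes without a genome, mapped them with Bowtie2, estimated expression with RSEM, and deposited normalized FPKM values averaged over the 3 replicates of each group. Tool versions are not given in the sources used here. FPKM corrects for library size and unigene length, but all values, also those of 0 and those above 100 FPKM, rest on an unknown number of reads. No counting interval is therefore given. Whether the replicates were separate trees was not used, since only their mean is held.

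The 12 columns were joined by unigene (8676 in each) and taken as log2(FPKM + 1). All columns matched a group. The members and the lists by function were chosen with earlier results of these data known, and nothing about them is independent evidence. No test was run, because 1 mean per group leaves no spread between samples. Differences were counted past 1, the size of the study's own fold threshold but without its P-value, and the main counts stand beside the same over all listed unigenes. Named were the annotated members, the 6 with the highest N37, and the 3 at either end of the rise in each fruit type, of the differences at 12, 22 and 37 DAF and of each threshold. Other unigenes are said to have been picked after their values were seen. Annotation came from the parts of the Pfam, Swiss-Prot and NR tables held here. No sequence of a unigene was held, so none is printed. The selection was tested on simulated data. Alternatives changed the pseudocount (0.1 and 5), the scaling, the minimum mean and rise, the exclusion at 17 DAF and the size that counts. Python 3.11.15 with numpy 2.4.6, pandas 2.3.3 and matplotlib 3.10.9 was used.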

Additional observations from a re-analysis of the deposited data

Results flagged for a closer look

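In 2 members the difference between 12 and 37 DAF had opposite signs in abnormal and normal fruits, while normal fruits were chosen to be higher at 37 DAF. The MLRQ subunit unigene DN20037_c0_g1 was lower at 37 than at 12 DAF in abnormal fruits, with a difference of −1.74, and higher in normal fruits, with 3.85. DN13036_c0_g1 had a difference of −0.22 in abnormal fruits, which is within 1, and 3.40 in normal fruits. The difference between fruit types in these courses was not tested, since each group is held as 1 mean.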

How the results depend on the processing

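No paired analysis was possible because each group is held as 1 mean over its replicates, and for the same reason no replicate could be left out. Of 180 values under other settings, 150 stayed within the 95% exact (Clopper-Pearson) interval of the share reported, which covers counting of members only, or, for the number of members, within 1.5 times. The settings share many of the same members, so staying within the interval does not measure how stable a share is. At 12 and 17 DAF more members were higher than lower in abnormal fruits under every setting, and at 22 DAF fewer. The choice of members bears on the balances at 12 and 17 DAF under each setting, so nothing is read from them. The near-even balance at 37 DAF (12 higher, 11 lower) turned to 5 and 8 with a pseudocount of 5, 32 and 36 with a minimum mean of 5 FPKM, 2 and 5 with one of 20 FPKM, 12 and 14 with a minimum rise of 2 and 0 and 7 in the graded members, and was even with a pseudocount of 0.1 (12 each) and when counting past 2 (6 each). At 27 DAF (7 higher, 11 lower) it was even (7 each) under both scalings, and at 32 DAF (2 higher, 6 lower) it turned to 1 and 0 when counting past 2. The share of graded members higher at 27 than at 32 DAF in normal fruits, 58.3% as deposited, was 46.7% with median-of-ratios scaling and 50% with equal column totals, each with the members retaken. The rule took 46 unigenes with median-of-ratios scaling, 159 with a minimum mean of 5 FPKM, 35 with a minimum mean of 20 FPKM and 119 with a minimum rise of 2, against 72. The shares of members that moved are as follows. With a pseudocount of 5, 0% were lower in abnormal fruits at 12 DAF, and 22.9% at 17 DAF and 0% at 22 DAF were higher. With a minimum mean of 5 FPKM, 13.8% were higher in abnormal fruits at 12 DAF and 22% at 17 DAF. With a minimum mean of 20 FPKM, 42.9% were higher by at least 3 at 37 than at 12 DAF in abnormal fruits, and 42.9%, 54.3%, 0% and 5.71% were higher than in normal fruits at 12, 17, 32 and 37 DAF. At least 3 within abnormal fruits was reached by 42.9% with a minimum rise of 2 and by 79.2% with a minimum rise of 4, where 14.6% and 20.8% were higher than in normal fruits at 12 and 17 DAF. Counting past 2, 72.2% were higher at 37 than at 12 DAF in abnormal fruits, against normal fruits 16.7%, 0% and 8.33% were higher at 12, 22 and 37 DAF, and 0%, 1.39%, 6.94% and 0% were lower at 12, 22, 27 and 32 DAF. Over the graded members alone, a choice made after seeing the data, 45.8% reached 3 within abnormal fruits, and 39.6%, 56.2% and 0% were higher than in normal fruits at 12, 17 and 37 DAF. The cause of these shifts beyond the change of members was not tested.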
